A study of Mus musculus with 8 samples.

Results

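Dermal fibroblasts are recognised by a small set of genes, and 10 of them were examined here in cultured skin fibroblasts of Nd2-mutant and control mice: Pdgfra, Thy1, Ly6a, Pdpn, Cd34, Dpp4, Dlk1, Vim, S100a4 and Twist1. The members were all probes on the array that carry 1 of these gene symbols. Under that rule 9 of the 10 genes were found, with 1 probe each, among 18138 gene symbols and 25697 probes. The remaining gene, Pdpn, was found through Gp38, an older symbol that RefSeq lists as its synonym, so that 10 probes were followed.

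RNA came from primary skin fibroblasts of 8 mice, all 12 months old, and each culture was measured on its own Illumina MouseRef-8 v2.0 array, a bead array that reads 1 colour per probe. The Nd2-mutant group held 4 mice of the strain C57BL/6J-mtALR/LtJ (males 28 and 32, females 34 and 35), and the control group held 4 mice of C57BL/6J-mtAKR/J (males 16 and 17, females 15 and 37). Both are conplastic strains, in which the C57BL/6J nuclear genome is combined with mitochondria of another strain, and the mutant carries a changed mitochondrial Nd2 gene, which encodes a subunit of respiratory complex I. The cells were released from skin with Liberase, kept in DMEM with 10% FCS and used at passage 1. No sorting of the cells is described in the methods, so that other skin cells could remain in the cultures.

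In skin, fibroblasts fill the dermis and secrete its collagens and proteoglycans. Papillary fibroblasts lie below the epidermis, reticular and hypodermal fibroblasts lie deeper, and adventitial fibroblasts surround vessels. Most of the genes followed here encode surface proteins by which these populations are gated. Pdgfra and Thy1 are used for fibroblasts in general, Dpp4 for papillary and interstitial progenitors, Dlk1 and Ly6a for deeper layers, Cd34 for reticular and adventitial cells, and Pdpn for fibroblasts and lymphatic endothelium. Vim encodes the main intermediate filament of mesenchymal cells, S100a4 a calcium-binding protein also called fibroblast-specific protein, and Twist1 a basic helix-loop-helix transcription factor of mesenchyme.

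The 250 bases before the transcription start are shown for the 4 genes with the largest difference between the strains, to set the regulatory sequence beside the values. They were taken from RefSeq on build GRCm38.p6, on the plus strand of the genome for these 4 genes: Twist1 at chr12:33957421-33957670, Vim at chr2:13574061-13574310, Dlk1 at chr12:109452573-109452822 and Pdgfra at chr5:75152001-75152250. Capitals mark every match to 4 core promoter and enhancer motifs, searched on both strands. The TATA box was searched as TATAAA and the binding element of Sp1, known as the GC box, as GGGCGG. The element of the NF-Y factor was searched as CCAAT. The E-box, to which helix-loop-helix factors bind, was searched as CANNTG with N for any base.
Twist1: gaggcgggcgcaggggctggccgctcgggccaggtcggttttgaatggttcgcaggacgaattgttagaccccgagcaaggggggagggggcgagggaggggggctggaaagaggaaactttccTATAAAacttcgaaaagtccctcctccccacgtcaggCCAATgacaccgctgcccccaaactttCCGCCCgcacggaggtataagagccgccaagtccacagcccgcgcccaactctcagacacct
Vim: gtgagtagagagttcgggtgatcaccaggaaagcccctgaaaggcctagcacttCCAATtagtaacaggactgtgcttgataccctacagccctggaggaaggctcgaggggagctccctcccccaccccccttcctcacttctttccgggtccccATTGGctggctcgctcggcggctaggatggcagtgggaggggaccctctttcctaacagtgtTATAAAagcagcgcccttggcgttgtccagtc
Dlk1: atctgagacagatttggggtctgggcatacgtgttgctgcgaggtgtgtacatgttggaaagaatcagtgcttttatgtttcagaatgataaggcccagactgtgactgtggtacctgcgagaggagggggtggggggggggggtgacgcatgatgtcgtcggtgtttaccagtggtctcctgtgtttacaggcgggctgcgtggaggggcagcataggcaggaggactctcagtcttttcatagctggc
Pdgfra: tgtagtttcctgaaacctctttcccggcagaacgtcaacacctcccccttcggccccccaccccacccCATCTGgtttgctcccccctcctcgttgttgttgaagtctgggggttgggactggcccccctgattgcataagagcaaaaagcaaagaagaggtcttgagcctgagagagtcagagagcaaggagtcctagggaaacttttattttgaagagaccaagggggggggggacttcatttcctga
The Vim window held a TATA box that begins 32 bases before the start, and 2 CCAAT boxes, 1 on each strand. The Twist1 window held a TATA box at 126 bases, a CCAAT box at 89 bases and a GC box at 62 bases before the start. The Pdgfra window held 1 E-box and none of the other 3 motifs, and the Dlk1 window held none of the 4. No match overlapped another in these windows. Among 32851 promoter windows of the same length, 12.4% held a TATA box, 32.7% a GC box, 33.8% a CCAAT box and 66.2% an E-box. The windows of Twist1 and Vim had a GC content of 62.4% and 58.4%, those of Dlk1 and Pdgfra 54.8% and 54.4%, and the median over all windows was 52.4%. The matches describe these letters and were not tied to any value below. Among all 10 genes, 8 had a promoter in the sequence table; Thy1 and Ly6a had none there.

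By their detection p-values the identity genes were detected in all cultures with 1 exception. A probe counted as detected where its detection p-value, computed against negative control beads, was under 0.01. Of the 10 probes, 9 were detected on 8 of 8 arrays. Dpp4, a dipeptidyl peptidase on the cell surface, was detected on 3 of 4 Nd2-mutant arrays and on 1 of 4 control arrays, although the mean was 11.1 in the mutant and 14.4 in the control mice. Cd34 and Dlk1 also read close to the background on some arrays, where the threshold decided the call. Cd34 read 12.2 in mutant mouse 34 and was detected, whereas Dpp4 read 12.6 in control mouse 16 and was not. More probes in all were detected on the mutant arrays (10973 to 11350) than on the control arrays (10663 to 10837). The level of 1 gene cannot be set against that of another on this platform, since probes differ in brightness, so each gene is described on its own.

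Values are normalized intensities on the linear scale. Pdgfra, the receptor for platelet-derived growth factors (probe ILMN_1235932), read 2849.5, 1997, 2439.5 and 2849.5 in Nd2-mutant mice 28, 32, 34 and 35, and 3022, 1591, 1815 and 1530.1 in control mice 15, 16, 17 and 37. Control mouse 15 had the highest value of all 8, and the other 3 control values lay below all 4 mutant values. The values of mutant mice 28 and 35 were identical, which can happen after quantile normalization when a probe has the same rank on 2 arrays.

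Thy1, a GPI-anchored glycoprotein also known as CD90 (ILMN_2644350), read 8246, 10747, 10463 and 10274 in the mutant mice, in the same order, and 12618, 10610.4, 10114 and 9699 in the control mice. It varied least: the highest value was 1.53 times the lowest. The extremes were control mouse 15 at the top and mutant mouse 28 at the bottom, and the other 6 values lay between 9699 and 10747.

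Ly6a, the stem cell antigen Sca-1 (ILMN_1255416), read 5214, 3828, 5459 and 6423 in the mutant mice and 4683, 4826, 3918 and 5438 in the control mice. The groups overlapped, with mutant mice at both ends. Pdpn, or podoplanin, a mucin-like membrane protein (ILMN_2654754), read 5633, 6115, 6477 and 5719 in the mutant mice and 6245, 4983, 5513 and 4050.2 in the control mice. The 4 mutant values lay above 3 of the 4 control values, and control mouse 15 was again apart from its group, with the second highest value.

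Cd34, a sialomucin (ILMN_2714360), read 25.1, 14.5, 12.2 and 24.1 in the mutant mice and 20.6, 33.1, 13.5 and 18.7 in the control mice. These values were detected on every array but were small beside the 16 that was added before taking log2, and the groups overlapped over most of their range. Dpp4 (ILMN_2615096) read 12.3, 12.2, 8.4 and 11.4 in the mutant mice and 27.9, 12.6, 4.5 and 12.5 in the control mice. Control mouse 15 stood far above the other 7, and it was the single control array on which Dpp4 was detected.

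Dlk1, a transmembrane protein of the Delta family and a marker of preadipocytes (ILMN_1244618), read 88.0, 14.1, 40.6 and 58.4 in the mutant mice and 26.9, 14.5, 13.97 and 25.5 in the control mice. Here 3 of 4 mutant values exceeded all control values, while mutant mouse 32 lay at the bottom with both control males. The highest Dlk1 value was 6.30 times the lowest.

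Vim (ILMN_2451022) read 4179.5, 3665, 4041 and 4607 in the mutant mice and 2068, 2865, 3319.5 and 4223 in the control mice. Control mouse 37 lay within the mutant range and the other 3 control mice below it. S100a4 (ILMN_2731901) read 247, 408, 499 and 385 in the mutant mice and 265, 648, 340.2 and 498 in the control mice, and the groups overlapped. Twist1 (ILMN_1236188) read 238, 265, 326 and 294 in the mutant mice and 194, 162, 233 and 226 in the control mice, and was the only tested identity gene whose groups did not overlap.

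**Figure D1:**
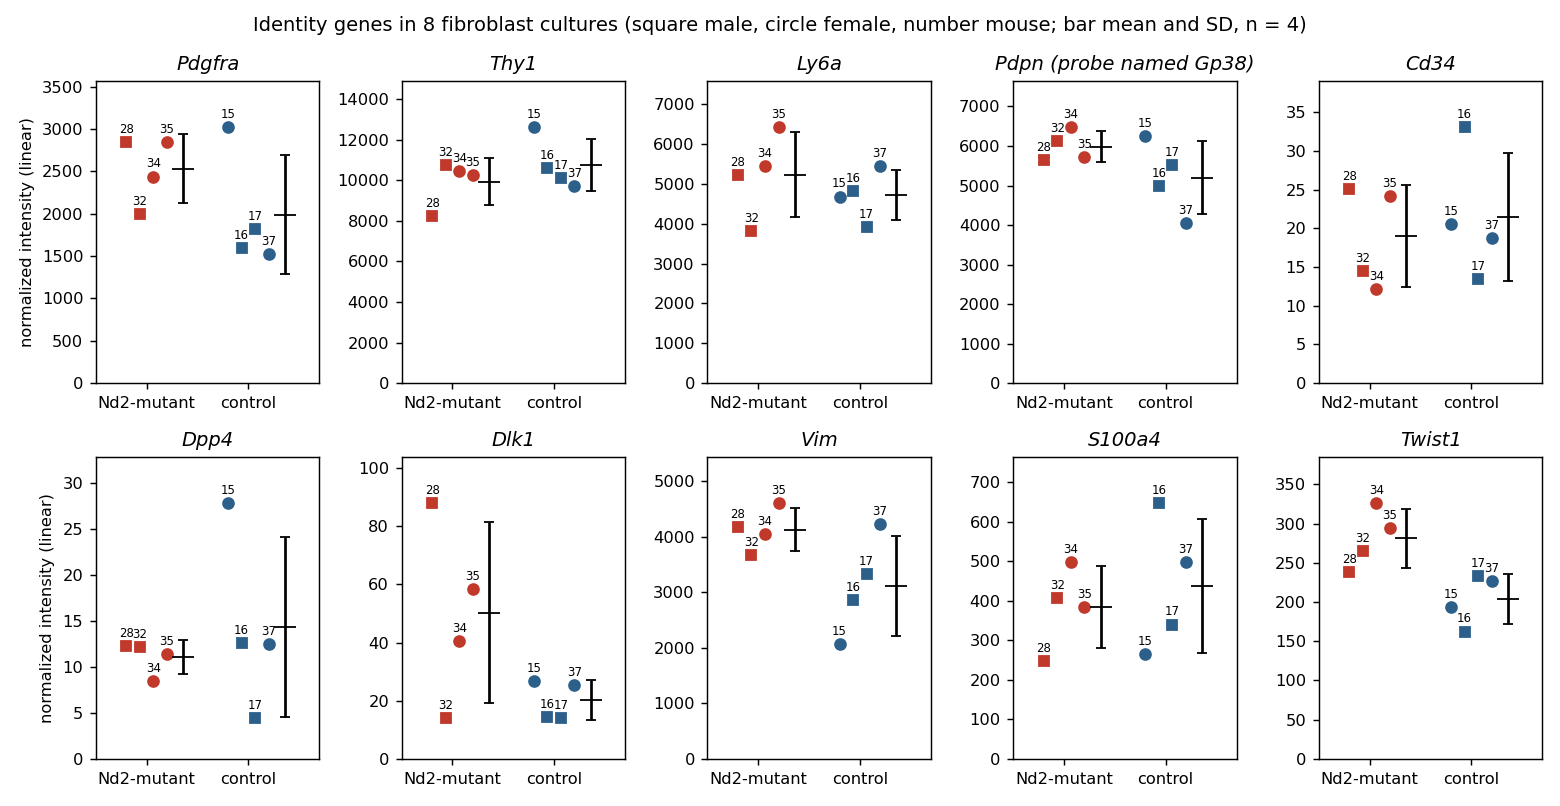
Normalized intensity (linear axis from 0, a scale of its own for each gene) of the 10 identity genes in 4 Nd2-mutant and 4 control cultures; squares are males, circles females, numbers the mice, and the black bar the mean and SD of 4. Twist1 runs from 238 to 326 in the mutant group and from 162 to 233 among controls, while control mouse 15 stands apart for Dpp4 at 27.9.

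How constant these genes were from culture to culture was described by the SD of log2(intensity + 16) over the 8 arrays. Over all 10414 tested probes the median SD was 0.27, and over the 9 tested identity genes it was 0.30, with 3 of 9 below the median of all probes. Thy1 had an SD of 0.17, and 16.3% of all tested probes had a smaller one. Pdpn followed with 0.22 and Ly6a with 0.25, at 32.5% and 44.4%. Cd34 had 0.27 and Twist1 0.30, close to the middle of all probes. Cd34 read only 12.2 to 33.1, so that the 16 added before log2 narrowed its spread. Its highest value was 2.71 times its lowest, against 2.63 times for S100a4 and 1.98 times for Pdgfra. The SDs of Vim (0.38), Pdgfra (0.39) and S100a4 (0.46) exceeded those of 76.7%, 79.3% and 86.5% of the probes. Dlk1, with an SD of 0.67, varied more than 96.4% of them.

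Within strains, after removal of the strain means, the residual SD of Twist1 was 0.20, with 30.5% of the tested probes below it, and that of Dlk1 was 0.57, with 94.2% below it. The median residual SD was 0.29 for the identity genes and 0.26 for all tested probes.

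**Figure D2:**
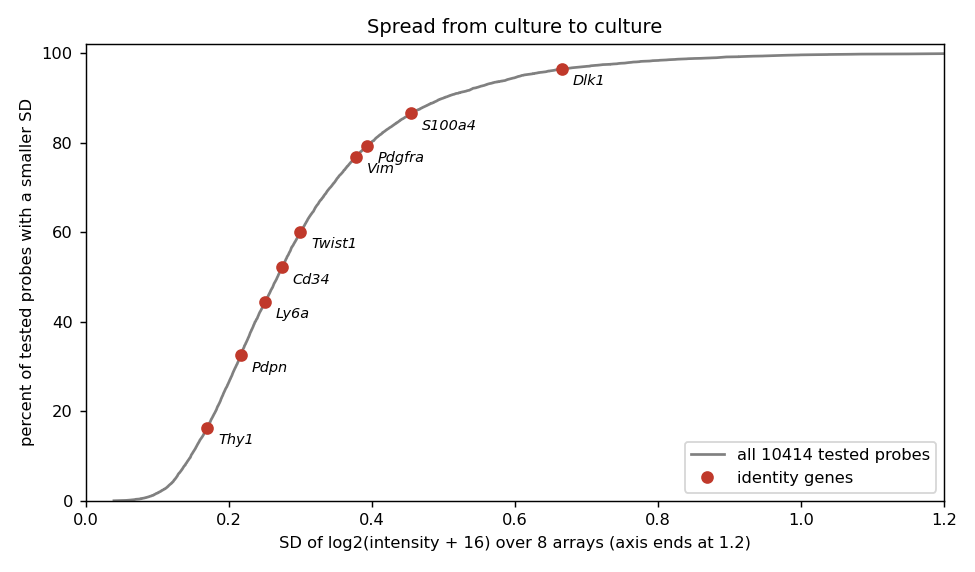
SD of log2(intensity + 16) over 8 arrays (x axis) against the percent of tested probes with a smaller SD (y axis); the grey line is all 10414 tested probes and the points are the 9 tested identity genes. Thy1 lies at 0.17 and Dlk1 at 0.67, at 16.3% and 96.4% of all probes.

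Of the 10 genes, 3 had their highest value in control mouse 15 (Pdgfra, Thy1 and Dpp4), and 1, Vim, its lowest. Over all tested probes this mouse held 26.5% of the highest and 31.4% of the lowest values. Control mouse 15 also had the lowest mean correlation with the other arrays over all tested probes, 0.934 against 0.963 to 0.974 for the other 7. The summed intensity of 10 endothelial genes was 1417 in this mouse and between 369 and 779 in the others, and whether those cells contribute to its values was not tested. Control mouse 15 also had the highest sums of other gene lists described below. Among them were the general, papillary and reticular fibroblast, PDGF, intermediate filament and melanocyte lists. Mutant mouse 28 had the highest Dlk1 value and the lowest Thy1 and S100a4 values.

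**Figure D3:**
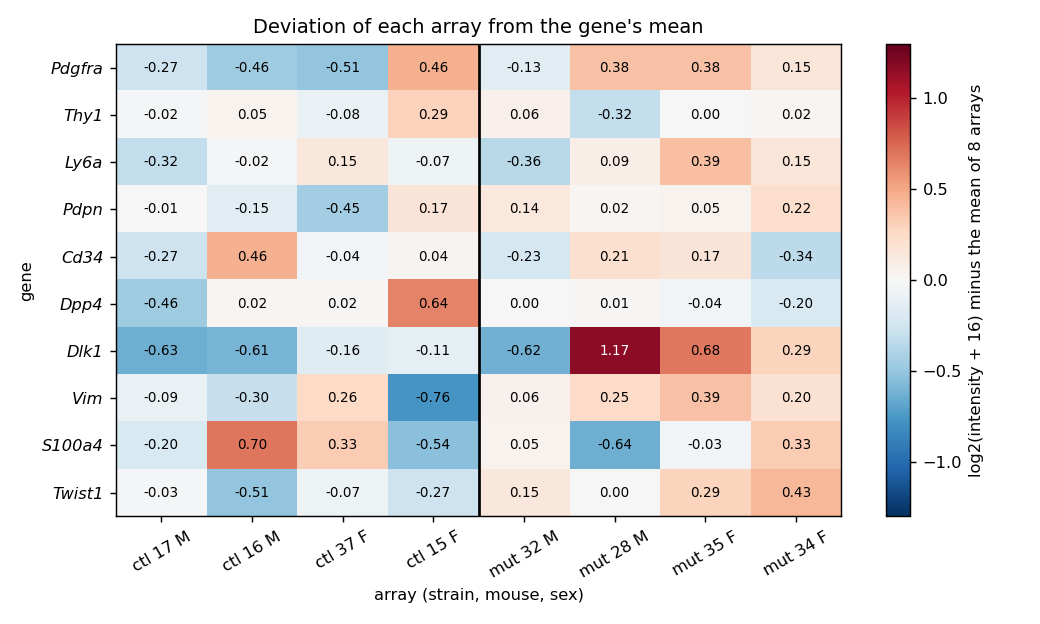
Deviation of each array from the mean of the 8 arrays for each identity gene, in log2(intensity + 16); control mice are left of the black line and mutant mice right of it, with M for male and F for female. In control mouse 15 Pdgfra is above its mean by 0.46 and Vim below it (-0.76), and in mutant mouse 28 Dlk1 is above its mean by 1.17.

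The series was set up to compare Nd2-mutant with control fibroblasts. None of the 9 tested identity genes differed between the strains after correction for multiple testing (limma, Benjamini-Hochberg adjusted p over all 10414 tested probes). The smallest adjusted p among them was 0.639, which was also the smallest of all probes, and the percentage of all probes called was 0. Without correction, 2 of 9 had a p under 0.05, Twist1 and Dlk1, both with the higher mean in the mutant mice, while 7.63% of all tested probes had such a p (4.5% with the higher and 3.13% with the lower mean in the mutant mice). The count of 2 fell to 0 without mutant mouse 34 or control mouse 16, was 1 with the methods' t-test and 3 without control mouse 15 or 37. In bulk RNA, fewer cells of a type and less RNA per cell cannot be told apart.

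Twist1 was 281 ± 37.9 in the mutant mice and 204 ± 32.4 in the control mice (mean ± SD, n = 4 each). The log2 fold change was 0.44 (SE 0.16, 95% interval 0.08 to 0.79), or 1.35-fold on the scale with 16 added, with a limma p of 0.0199 and an adjusted p of 0.639. The exact 2-sided permutation test of 4 against 4 arrays gave 0.0286, the smallest value it can give. Such a separation of all 4 values from all 4 was seen for 1 of 9 identity genes and for 4.37% of all tested probes.

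Dlk1 was 50.3 ± 31.0 in the mutant mice and 20.2 ± 6.9 in the control mice (mean ± SD, n = 4 each). Its log2 fold change was 0.76 (SE 0.33, 95% interval 0.03 to 1.48), with a limma p of 0.0428, an adjusted p of 0.639 and an exact permutation p of 0.143. The size depended on single mice and on the value added before log2. It was 1.09 without mutant mouse 32 and 0.49 without mutant mouse 28, and 1.07 with 1 added and 0.46 with 50 added.

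Vim was 4123 ± 389 and 3119 ± 899.7 in the mutant and control mice (mean ± SD, n = 4 each), a log2 fold change of 0.44 (SE 0.21, 95% interval -0.01 to 0.90, adjusted p 0.639 by limma). Pdgfra was 2534 ± 407 and 1989.7 ± 699, a log2 fold change of 0.39 (SE 0.23, 95% interval -0.11 to 0.89, adjusted p 0.653 by limma). Leaving out control mouse 15 moved these 2 values in opposite directions. Without it the log2 fold change of Pdgfra was 0.61 (unadjusted limma p 0.00346, adjusted p 0.596) and that of Vim 0.26 (unadjusted p 0.130, adjusted p 0.714).

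Pdpn had a log2 fold change of 0.22 (SE 0.16, 95% interval -0.13 to 0.57) and Ly6a of 0.13 (SE 0.18, -0.27 to 0.54). Without control mouse 37 the value of Pdpn was 0.10, and that of Ly6a was 0.03 without mutant mouse 35 and 0.28 without mutant mouse 32. The means were 5986 ± 389 and 5198 ± 924 for Pdpn, and 5231 ± 1071 and 4716 ± 625 for Ly6a, in mutant and control mice. For Thy1 the log2 fold change was -0.12 (SE 0.15, -0.44 to 0.21). Cd34 (-0.09, SE 0.19, -0.53 to 0.34) and S100a4 (-0.14, SE 0.28, -0.77 to 0.49) had wider intervals. The sign of the last 2 turned when single mice were left out. The adjusted p of these 5 genes lay between 0.696 and 0.889 (limma).

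Over the 9 tested genes, 6 had the higher mean in the mutant mice and 3 the lower. The median log2 fold change was 0.22, against 0.00 over all tested probes, of which 50.2% were higher in the mutant mice. The median size of the log2 fold change, without its sign, was 0.22 for the identity genes and 0.16 for all tested probes. The 4 largest, Dlk1, Vim, Twist1 and Pdgfra, exceeded in size 97.9%, 89.9%, 89.6% and 86.0% of the probes. The arrays were balanced for sex, but the summed intensity of a smooth muscle and pericyte list did not overlap between the strains. It was 12587 to 15297 in the mutant mice and 15694 to 17939.9 in the control mice, and was the 1 of 20 summed gene lists without overlap, while 4.37% of single tested probes separated in this way. Sums were taken on the linear scale, and Acta2, a bright gene described under the other observations, made up most of this one. Of the 10 genes in the list 7 were detected on every array. Cnn1, a smooth muscle gene, and Rgs5, a pericyte gene named here because of its value, were detected on none. The part of this list in the differences of the identity genes was not tested.

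**Figure D4:**
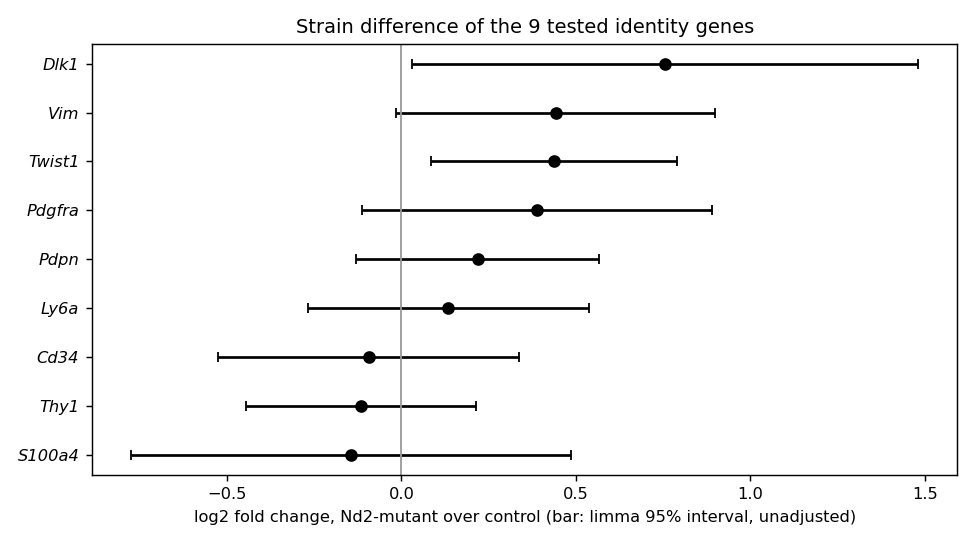
Log2 fold change of the 9 tested identity genes, Nd2-mutant over control (x axis), with the unadjusted 95% interval of limma (bars, n = 4 each). The intervals of Dlk1 (0.03 to 1.48) and Twist1 (0.08 to 0.79) lie above 0 before correction, and those of the other 7 genes include 0.

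**Figure D5:**
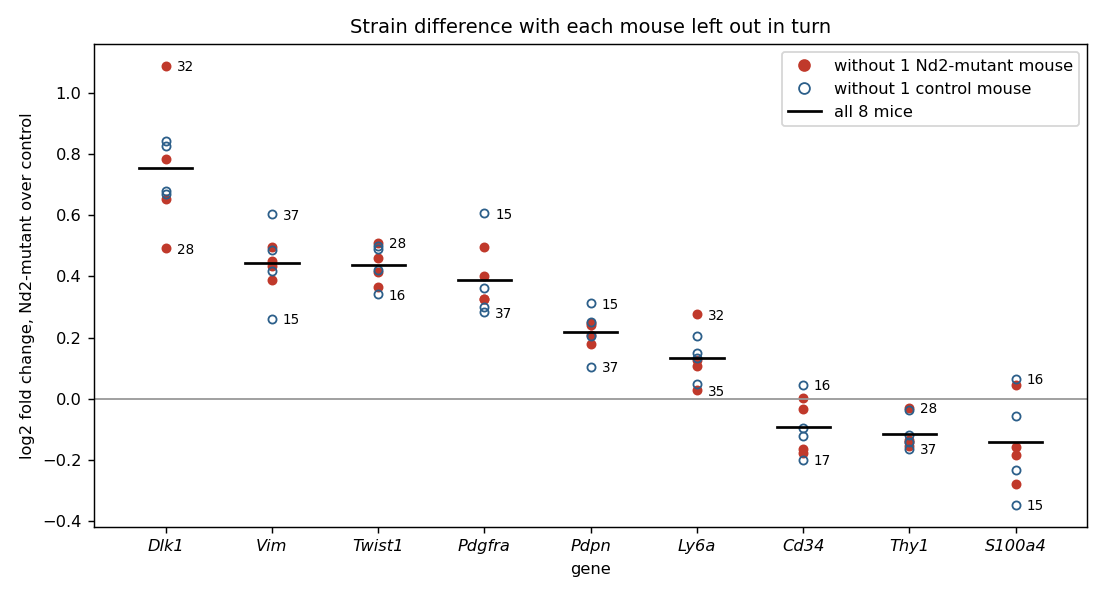
Log2 fold change, Nd2-mutant over control (y axis), of each tested identity gene with all 8 mice (line) and with each mouse left out in turn (filled points, a mutant mouse left out; open points, a control mouse), the numbers naming the mouse left out at the lowest and highest value. Twist1 stays between 0.34 and 0.51, while Cd34 and S100a4 pass through 0.

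Both strains held 2 males and 2 females, so that the strain difference could also be read within each sex, as values with no test. Twist1 was higher in the mutant mice by 0.35 in males and 0.53 in females on the log2 scale, with no overlap in either sex. Of the 9 tested genes, 4 separated the strains in males and 3 in females, and with 2 mice against 2 the same was seen for 34.6% and 32.9% of all tested probes. Pdgfra (0.49), Vim (0.34) and Pdpn (0.16) separated the strains in males and not in females, where control mouse 15 or 37 lay among or above the mutant mice. Dlk1 (0.62) and Ly6a (0.23) separated them in females and not in males. The female mutant mice were below both female control mice for Dpp4.

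For S100a4 the difference was -0.54 in males and 0.26 in females. The interaction of strain and sex for S100a4 was -0.80 (SE 0.57, unadjusted limma p 0.197). None of the 9 genes had an interaction p under 0.05, with or without correction, while 1.77% of all tested probes passed without correction and 0.0096% with it. Each combination of sex and strain held 2 mice.

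In the comparison of the sexes, strain was kept in the model. None of the 9 identity genes passed, either adjusted or unadjusted, whereas 0.0192% of all tested probes did after correction and 8.31% before it. The smallest p belonged to Ly6a, which read 4446 ± 682 in males and 5501 ± 713 in females (mean ± SD, n = 4 each). Its log2 difference, male minus female, was -0.31 (SE 0.16, 95% interval -0.67 to 0.05, limma p 0.0829, adjusted p 0.661). All 4 males and all 4 females were separated for none of the 9 genes and for 5.16% of all tested probes. Log2 means were lower in males for 7 of the 9 genes, with a median log2 difference of -0.12 against 0.01 over all tested probes. Dlk1 (-0.35, SE 0.32), Pdgfra (-0.24, SE 0.22) and Twist1 (-0.19, SE 0.15) were among these 7, and Cd34 (0.08, SE 0.20) and Pdpn (0.00, SE 0.16) had the higher log2 mean in males. The value of Dlk1 was -0.73 without mutant mouse 28 (unadjusted limma p 0.0048, adjusted p 0.695) and -0.02 without mutant mouse 32. Ly6a reached an unadjusted p of 0.0444 without control mouse 15 (-0.37, adjusted p 0.515).

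The fibroblast label was checked with further genes of the dermis. Of 15 general fibroblast genes, 14 were on the array and tested, and 13 were detected on every array. Col1a1, a chain of type I collagen, was 10221 ± 1300.2 in the mutant mice and 8938 ± 1207 in the control mice, and Dcn, the proteoglycan decorin, 6299 ± 649 and 6089 ± 2380.5. Fap, a serine protease of activated fibroblasts, was detected on 3 of 4 mutant and 4 of 4 control arrays, at 34.6 ± 16.9 and 36.9 ± 32.03. None of the 14 passed with correction, 11 had the higher mean in the mutant mice, and their median log2 fold change was 0.08. Lum, the proteoglycan lumican, was the single gene with an unadjusted p under 0.05, at 236 ± 27.0 and 134 ± 68.1 (log2 fold change 0.88, SE 0.31, limma adjusted p 0.639). Over all tested probes 7.63% had an unadjusted p under 0.05 for strain. The same share is the background for the counts of the lists below.

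Genes of the fibroblast layers gave no call after correction either. Of 10 papillary genes 5 were tested, 2 with the higher and 3 with the lower mean in the mutant mice. The Wnt effector Lef1 was detected on 0 of 8 arrays. Lrig1, a regulator of growth factor receptors, had a log2 fold change of -0.22 (SE 0.16). The transcriptional repressor Trps1 (-0.48, SE 0.19), the single papillary gene with an unadjusted p under 0.05, is named because of its value. Of 10 reticular and hypodermal genes 8 were tested, 7 of them with the higher mean in the mutant mice (median log2 fold change 0.32), among them Mgp, an inhibitor of calcification (0.36, SE 0.56), and the secreted peroxidase Gpx3 (0.24, SE 0.31). The chemokine Cxcl12 (0.49, SE 0.19) and the transglutaminase Tgm2 (-0.99, SE 0.25) had an unadjusted p under 0.05 and are named for that.

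Of 10 adventitial genes 4 were tested, and Pi16, a marker of adventitial progenitors, was detected on 0 of 8 arrays. The stromal glycoprotein Cd248 was 2201 ± 146 and 2215 ± 265 in mutant and control mice, with a log2 fold change of 0.00 (SE 0.14). Of 8 dermal papilla genes 3 were tested, 1 with the higher and 2 with the lower mean in the mutant mice (median log2 fold change -0.14). The 1 with the higher mean was Crabp1, which binds retinoic acid (0.21, SE 0.23). Control mouse 15 had the highest summed intensity of the general, papillary and reticular lists.

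The families of the identity genes were set beside them. Of 14 mesenchymal transcription factors 10 were tested, 5 with the higher and 5 with the lower mean in the mutant mice, and none had a p under 0.05. Twist2, the closest relative of Twist1, had a log2 fold change of -0.09 (SE 0.26), Zeb1, a repressor of epithelial genes, of -0.10 (SE 0.16), and the homeobox factor Prrx1 of -0.03 (SE 0.16). Snai2 was not matched to a probe. The difference between Twist1 and these factors was not tested.

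For Pdgfra, 5 of 6 PDGF ligands and receptors were tested and none passed, 1 with the higher and 4 with the lower mean in the mutant mice. The other receptor, Pdgfrb, was 666 ± 222 in the mutant mice and 743 ± 318 in the control mice (log2 fold change -0.12, SE 0.29). The ligand genes Pdgfa and Pdgfc had -0.46 (SE 0.23) and -0.07 (SE 0.28). Of 17 relatives of the surface genes 12 were tested, with none past correction. Of these, 2 had an unadjusted p under 0.05, both with the lower mean in the mutant mice: the sialomucin Emcn (-1.20, SE 0.27) and the hyaluronan receptor Cd44 (-0.53, SE 0.18), which are named because of their values. Over all tested probes 3.13% had such a p with the lower mean in the mutant mice. Of the Ly6 family beside Ly6a, Ly6c1 had a log2 fold change of 0.50 (SE 0.34) and Ly6e of -0.15 (SE 0.17).

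Of 13 S100 genes 6 were tested, and none had a p under 0.05. S100a6, S100a10 and S100a11, calcium-binding proteins related to S100a4, had log2 fold changes of -0.10 (SE 0.13), -0.30 (SE 0.20) and 0.30 (SE 0.15). Of 10 intermediate filament genes beside Vim 4 were tested, and Nes, which encodes nestin, was the 1 with an unadjusted p under 0.05, at 29.4 ± 10.8 in the mutant mice and 75.0 ± 54.1 in the control mice (log2 fold change -0.88, SE 0.32, limma adjusted p 0.639).

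Genes of other skin cells were measured alongside, since Thy1, Cd34, Pdpn and Vim are not limited to fibroblasts. Defining genes were detected on 0 of 8 arrays for T cells (Cd3e, Cd3d and Cd3g) and mast cells (Cpa3, Cma1 and Mcpt4). The same held for the melanocyte genes Dct and Tyrp1, the adipocyte genes Plin1 and Fabp4 and the myoblast genes Myod1 and Pax7. Of the 7 T cell genes on the array 6 were detected in no culture. The other was detected in mutant mice 28 and 32 and in control mice 15 and 37. Of the 7 melanocyte genes on the array 1 was detected on every array, and of 8 skeletal muscle genes 2. Adipoq, which encodes the adipocyte hormone adiponectin, and Myog, which encodes the muscle factor myogenin, were each detected on 1 array. The sum of 8 adipocyte genes was 2257 to 6934 in the mutant mice and 1597 to 5034 in the control mice, and 1 of the 8, the lipase gene Lpl, named because of its value, was detected on every array (log2 fold change 0.49, SE 0.38). Of 10 keratinocyte genes, Krt14 and Krt10 were tested, Krt1 was detected on 0 arrays and Krt5 on 1, and the summed intensity was 199 to 1193 in the mutant mice and 328 to 954 in the control mice. Of 10 endothelial genes 6 were tested, Kdr was detected on 0 arrays, and Pecam1 and Cdh5 read 23.5 ± 8.2 and 20.7 ± 4.9 in the mutant mice and 40.5 ± 32.1 and 27.4 ± 24.6 in the control mice. Of 10 macrophage genes 6 were tested, 5 of them with the higher mean in the mutant mice (median log2 fold change 0.50). On every array 3 of the 10 were detected, and 1, the leukocyte gene Ptprc, on none. The macrophage sum was highest in mutant mouse 35 (1712) and between 249 and 596 in the others, with Cd68 and Lyz2 detected on 6 and 7 arrays. Of the Schwann cell genes, Mbp, Ngfr and Egr2 were detected on every array, with log2 fold changes of -0.02 (SE 0.14), -0.09 (SE 0.64) and -0.19 (SE 0.32), and their summed intensity was 867 to 1638 in the mutant mice and 683 to 2348 in the control mice, highest in control mouse 15. None of the tested genes of these lists passed with correction, and their part in the values of the identity genes was not tested.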

How the data were processed

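RNA of 8 skin fibroblast cultures, 1 per mouse, was hybridized to Illumina MouseRef-8 v2.0 arrays. According to the methods and the submitters' processing notes, the authors used GenomeStudio for extraction, quantile normalization and, where needed, background subtraction. The deposited intensity values are linear. Detection p-values were deposited beside them, 1 per probe and array. The deposited tables of normalized and non-normalized data hold the same values, so no other normalization was computed. No chip is named, so chip was not used as a block. Detected probes, the measure of signal over background, numbered 10973 to 11350 on mutant and 10663 to 10837 on control arrays, and the small number of arrays limits the precision.

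Intensities under 0 were set to 0, 16 was added and log2 was taken. Probes with a detection p-value under 0.01 on all 4 arrays of at least 1 strain were tested, 10414 probes of 8003 genes. Groups, sex and mouse came from the labels. Strains, sexes (strain as a term) and their interaction were compared with limma 3.58.1 (lmFit, eBayes) in R 4.3.3, 2-sided, Benjamini-Hochberg adjusted over all tested probes at 0.05. The exact permutation test was run on single genes. The labels name separate mice, not separate extractions. The limma steps were tested on simulated data. Promoters were taken from a RefSeq table by symbol, and figures were drawn with matplotlib 3.10.9.

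All 10 members were named with every probe, and from the related lists Col1a1, Dcn, Lum, Fap, Pdgfrb, Prrx1, Lef1, Lrig1, Mgp, Gpx3, Pi16, Cd248, Ly6c1, Crabp1, Twist2, Snai2, Zeb1, Pdgfa, Pdgfc, Ly6e, S100a6, S100a10, S100a11 and Nes. From the lists of other cell types the opening 3 genes were eligible, and the brightest probe stood for a gene with several. Other genes are named with a remark, and part of the list of Schwann cell genes is not reported here. The members and lists were chosen with earlier results of these data known. Alternatives were another value added before log2, the linear scale, other detection filters, centring, a variance trend and array weights. Further ones were the t-test named in the methods (on the log2 values), sex as a term, and leaving out mice.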

Additional observations from a re-analysis of the deposited data

Results flagged for a closer look

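In the Nd2-mutant group, Thy1 had 1 mouse far from the others. Mutant mouse 28 read 8246, and the other 3 read 10274, 10463 and 10747. The gap to the nearest value was 0.8299 of the group's range, barely above the 95% critical value of Dixon's test for 4 samples. Of 20 groups tested, 10 genes in 2 strains, this was the only one past that value, and chance gives about 1 in 20. Without mutant mouse 28 the log2 fold change of Thy1 between the strains was -0.03 in place of -0.12, and neither value passed the test.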

How the results depend on the processing

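The number of identity genes past the adjusted threshold was 0 in every setting run for the strain comparison, the sex comparison and the interaction of strain and sex. Of 342 recomputed values of single genes, 322 kept their direction and 20 reversed, 4 of 180 for strain and 16 of 162 for sex. The detection filters and the variance trend, and for strain the t-test and the sex term, left the log2 fold change itself unchanged. Values from those settings could not reverse, though they are counted among the 322. At an unadjusted p under 0.05 the count for strain was 2 and ranged from 0 to 3. In the main setting 7.63% of all tested probes had such a p for strain and 8.31% for sex. The share for strain was 5.4% without mutant mouse 34, where the count was 0. It was 7.91% without control mouse 15, where the count was 3. For sex the count was 0. It reached 1 with a variance trend and without mutant mouse 28 or control mouse 15, and 2 with array weights. The share of all probes in those sex settings is not given here. The smallest adjusted p reached was 0.308 for strain (Twist1 without control mouse 17) and 0.0685 for sex (Ly6a with array weights). With each mouse left out, the strain difference ranged from -0.20 to 0.045 for Cd34 and from -0.35 to 0.066 for S100a4. The sex difference ranged from -0.066 to 0.23 for Cd34, from -0.30 to 0.17 for S100a4, from -0.13 to 0.12 for Pdpn and from -0.26 to 0.15 for Vim. It also reversed for Pdpn on the linear scale (-61.7 intensity units) and for Pdgfra without both control mouse 15 and mutant mouse 35 (0.059). The cause of these reversals was not tested. The count of genes at the smallest exact permutation p was 1, and 0 to 2 with a mouse left out; these settings and those of the interaction were chosen after seeing the data. The median SD over the arrays was 0.30, 0.38 with 1 added, 0.26 with 50 added and 0.26 to 0.32 with a mouse left out. For sex, all tested probes gave 2 calls, and 391 with array weights. Not run were normexp and quantile normalization, since both tables hold the same values, chip as a block, and the permutation test without 2 mice, which cannot pass at 3 against 3. No paired analysis was possible because no mouse number occurs in both strains. With 4 arrays a strain, intervals were wide, and Cd34, Dlk1 and Dpp4 were close to the background.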

Other observations

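Among the lists of other cell types, that of smooth muscle cells and pericytes had lower means in the Nd2-mutant mice for 7 of 7 tested genes, 4 of them at an unadjusted p under 0.05 and none after correction. Over all tested probes 3.13% had such a p with the lower mean in the mutant mice. Acta2, the smooth muscle actin also made by activated fibroblasts, read 11533 ± 1764 in the mutant mice and 12692 ± 959 in the control mice (mean ± SD, n = 4 each), a log2 fold change of -0.15 (SE 0.15). Myh11, the smooth muscle myosin heavy chain, read 43.3 ± 20.4 and 116.6 ± 76.4 (log2 fold change -1.07, SE 0.37, limma adjusted p 0.639). Named because of their values, Ednrb of the melanocyte list (log2 fold change -1.01, SE 0.33), Acta1 of the skeletal muscle list (-0.86, SE 0.34) and Emcn of the endothelial list (-1.20, SE 0.27) also had an unadjusted p under 0.05, and none passed with correction.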
